A study of Mus musculus with 4 samples.

Results

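Hic1 (hypermethylated in cancer 1) was followed as the single feature of that symbol, identifier ENSMUSG00000043099, among the 28001 features present in all 4 count matrices of sorted mouse heart cells. The genes that went with its counts were then sought across the whole table. HIC1 is a zinc finger protein of the BTB/POZ family that represses transcription together with CtBP, NuRD and SWI/SNF proteins, and its gene is a p53 target that is silenced by promoter methylation in many tumours. In adult mesenchyme it is known as a mark of quiescent progenitors, and in the heart Hic1 reporters label fibroblasts and the pericytes that wrap small vessels.

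The libraries came from C57BL/6 mice and were made with 10x Genomics droplets, each library being 1 sample. In the first were tdTomato+ cells from the Hic1 CreERT2 tdTomato strain, taken 7 days after ligation of the left anterior descending coronary artery (LAD), a model of myocardial infarction, from 3 pooled hearts. The second held the same kind of cell from 3 pooled undamaged hearts. In this strain a tamoxifen-dependent Cre switches on a lasting tdTomato label in cells that use the Hic1 gene at induction, so a labelled cell need not express Hic1 when it is sorted. The third library held Hic1 Citrine+ cells of 3 undamaged hearts, each marked by an antibody hashtag. The fourth held PDGFRa H2BEGFP+ cells (strain B6.129S4-Pdgfratm11(EGFP)Sor/J) of 4 hashed hearts, 2 undamaged and 2 taken 7 days after ligation. The labels do not say which PDGFRa hashtag is which, so those 4 hearts were not split by injury. The labels also do not say how the citrine allele is built, and whether reads of the reporter allele count as Hic1 was not tested.

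After filtering, 4263 ligated and 2786 undamaged tdTomato+ cells, 10838 citrine+ cells and 12567 PDGFRa+ cells remained, with median depths of 3668, 3453, 8038.5 and 7729 UMIs (unique molecular identifiers, each a counted RNA molecule). A clearly leading hashtag was found in 7125 of the citrine+ cells and 10859 of the PDGFRa+ cells, and only these entered values by heart. Between 0 and 35 cell barcodes were shared by any pair of libraries. Cells were grouped by clustering that left out Hic1 and the reporters, and clusters were named from marker lists, so "pericyte-like" and the like rest on RNA alone. Of 10 fibroblast markers, fibroblast-like clusters had 7 to 10 in the ligated and 8 to 10 in the undamaged tdTomato library, 7 to 10 in the citrine library and 4 to 10 in the PDGFRa library, whose clusters were all fibroblast-like. The PDGFRa cluster with 4 of them held 66 cells.

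In the GENCODE M21 annotation (mm10), Hic1 lies on chromosome 11 at 75164565 to 75169519 on the minus strand. Smg6, on the other strand, ends 117 bases away without overlap, and the microRNA genes Mir212 and Mir132 start 3869 and 4163 bases away. RefSeq (GRCm38.p6) gives a pair of start windows for Hic1, each of 300 bases (250 before and 50 after the start), shown here because the gene is known for methylation of its CpG-rich promoter. The first, chr11:75170206-75170505 on the minus strand, holds 20 CpG dinucleotides at 64.7% GC, and 26.5% of all 32851 RefSeq windows hold at least as many. The second, chr11:75168103-75168402 on the minus strand, holds 29 at 77.3% GC, and 12.9% of windows hold at least as many. The median window holds 7 at 52.7% GC. CpG dinucleotides are in capitals.
Hic1 upstream window: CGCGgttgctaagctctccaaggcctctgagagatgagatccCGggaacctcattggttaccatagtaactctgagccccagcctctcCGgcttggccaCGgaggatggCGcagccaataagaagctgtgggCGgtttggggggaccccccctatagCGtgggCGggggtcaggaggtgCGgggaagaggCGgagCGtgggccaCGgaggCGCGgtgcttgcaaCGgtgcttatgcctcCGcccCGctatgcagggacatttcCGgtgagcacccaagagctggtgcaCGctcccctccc
Hic1 downstream window: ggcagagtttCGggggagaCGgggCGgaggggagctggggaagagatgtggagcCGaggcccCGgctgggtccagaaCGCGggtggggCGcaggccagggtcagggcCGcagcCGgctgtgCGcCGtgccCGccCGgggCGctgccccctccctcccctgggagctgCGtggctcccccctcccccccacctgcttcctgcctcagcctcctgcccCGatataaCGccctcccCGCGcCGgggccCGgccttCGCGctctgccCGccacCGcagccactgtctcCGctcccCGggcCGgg

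The HIC1 protein binds a site with the core GGGCANCC. These letters, read on both strands, were in neither Hic1 window. They were in 5.46% of all windows and in 6.28% of the 27025 genes with a window. Of the 40 genes named further on for going with Hic1 counts, 30 had a window and 6 of these (20%) held the letters, namely Pdrg1, Sh3bp5, Jup, Sema3c, Crispld2 and Snrk. The windows of Sh3bp5, which was higher with Hic1, and of Sema3c, which was lower, are shown with the match in capitals. The Sh3bp5 window shown is chr14:31436051-31436350 on the minus strand, with the match starting 22 bases before the gene's start. Another Sh3bp5 window, chr14:31417628-31417927 on the minus strand, has a match 181 bases before its own start and is not shown. The window of Sema3c is chr5:17574566-17574865 on the plus strand, with the match 146 bases before the start. Neither gene was called again in the second draw of cells described below. A match of letters is a description and does not show binding.
Sh3bp5 window: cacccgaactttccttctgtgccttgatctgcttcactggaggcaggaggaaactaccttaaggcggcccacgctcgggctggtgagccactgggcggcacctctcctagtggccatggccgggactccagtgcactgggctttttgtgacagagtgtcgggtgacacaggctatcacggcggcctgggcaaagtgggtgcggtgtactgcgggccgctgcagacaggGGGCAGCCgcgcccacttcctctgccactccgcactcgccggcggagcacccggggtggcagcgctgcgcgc
Sema3c window: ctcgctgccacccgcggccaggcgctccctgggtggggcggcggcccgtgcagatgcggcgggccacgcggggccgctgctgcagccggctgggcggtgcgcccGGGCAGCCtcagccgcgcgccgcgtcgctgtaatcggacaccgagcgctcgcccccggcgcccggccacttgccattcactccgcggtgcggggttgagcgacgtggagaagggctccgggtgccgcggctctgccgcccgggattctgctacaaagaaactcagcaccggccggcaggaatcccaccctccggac

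Hic1 was most abundant where cells had been sorted by its own reporter. In CPM (UMIs of the gene scaled to all UMIs of the same cells, with exact Poisson 95% intervals that cover counting error only), it reached 34.8 (32.1 to 37.6) in ligated tdTomato+ cells, 21.5 (18.7 to 24.6) in undamaged tdTomato+ cells, 303 (300 to 307) in citrine+ cells and 29.9 (28.9 to 30.9) in PDGFRa+ cells. These levels rest on 625, 211, 29302 and 3607 Hic1 UMIs. At least 1 Hic1 UMI was seen in 13.1% of ligated and 7.04% of undamaged tdTomato+ cells, in 82.3% of citrine+ cells and in 22.9% of PDGFRa+ cells. With cells thinned to 2000 UMIs, which left out 497 ligated and 419 undamaged tdTomato+, 229 citrine+ and 136 PDGFRa+ cells of lower totals, the shares were 7.09%, 4.07%, 44.0% and 6.46%, so that the PDGFRa+ share, above that of ligated tdTomato+ cells before thinning, was not above it at equal depth. With 1 library per group there was no replicate check and no test between libraries.

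Among mural and fibroblast classes of the lineage-traced libraries, pericyte-like cells had the highest Hic1 level and smooth muscle-like cells one of the lowest. After ligation, pericyte-like cells had 59.2 CPM (49.9 to 69.7; 143 UMIs in 805 cells), smooth muscle-like cells 13.2 CPM (13 UMIs in 315 cells), cycling cells 9.92 CPM (2 UMIs in 23 cells) and fibroblast-like cells 32.5 CPM (467 UMIs in 3120 cells). In undamaged hearts, pericyte-like cells had 69.9 CPM (43.3 to 107; 21 UMIs in 178 cells), smooth muscle-like cells 5.10 CPM (2 UMIs in 160 cells) and fibroblast-like cells 20.7 CPM (188 UMIs in 2435 cells). The 13 endothelial-like cells of the undamaged library held 0 Hic1 UMIs, which allows a share of cells with a UMI of up to 23.1%. Pericyte-like over fibroblast-like cells, the ratio was 1.82 (1.50 to 2.20) after ligation and 3.39 (2.05 to 5.33) in undamaged hearts. Smooth muscle-like over fibroblast-like, it was 0.407 (0.215 to 0.703) and 0.247 (0.0297 to 0.905).

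**Figure D1:**
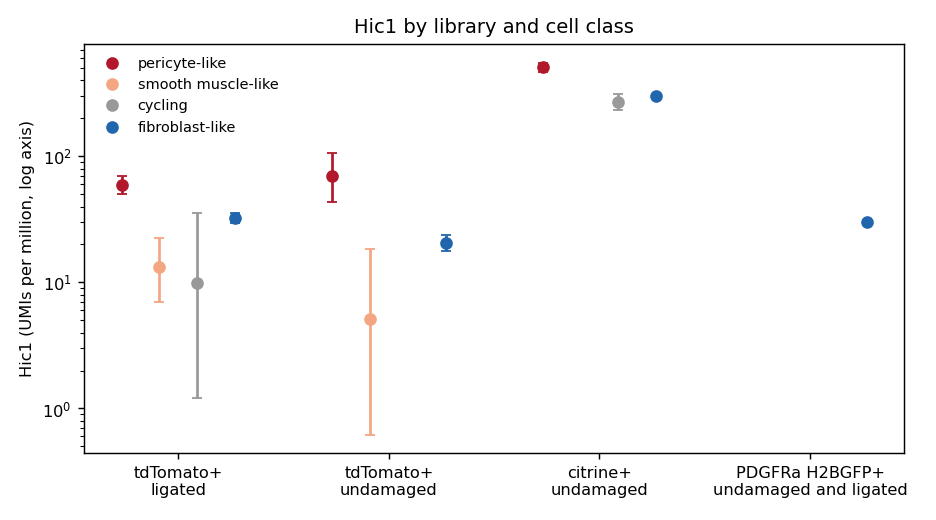
Hic1 level (CPM, log axis) in each library and marker-defined class, with points for the pooled cells of a class and bars for the exact Poisson 95% interval. Pericyte-like cells lie above fibroblast-like cells in both tdTomato libraries (59.2 against 32.5 CPM ligated, 69.9 against 20.7 CPM undamaged) and in the citrine library (510 against 301 CPM).

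Ligated hearts had the higher Hic1 level in fibroblast-like cells, at 32.5 CPM against 20.7 CPM in undamaged hearts, a ratio of 1.57 (1.33 to 1.87). Activated-like cells of ligated hearts, a cluster of 377 led by Cthrc1, Thbs4 and Ddah1, had 25.4 CPM. The undamaged cluster that met the same list, 220 cells led by Cytl1, Comp and Cst6, had 7.00 CPM (2.81 to 14.4) from 7 UMIs. The leading genes differ and no undamaged cluster met that list at the coarser clustering (resolution 0.5), so these levels are not compared. Sca1-high-like cells, which carry progenitor genes such as Pi16, had 32.8 CPM in ligated and 18.6 CPM in undamaged hearts (1.77, 1.03 to 3.16), and a ratio of 2.63 (1.62 to 4.41) at the coarser clustering. Interferon-responding cells had 36.9 CPM in ligated and 22.9 CPM in undamaged hearts (1.61, 0.463 to 5.80; 1.01 with at most 5% mitochondrial UMIs), and the remaining fibroblast-like cells 34.8 and 24.4 CPM (1.43, 1.17 to 1.74). Wif1-like cells, a cartilage-like kind seen as a cluster of its own in the undamaged library, had 6.85 CPM there from 4 UMIs, and 12.7 CPM at the coarser clustering. For pericyte-like cells the ratio was 0.846 (0.533 to 1.41), with the interval on both sides of 1, and it became 1.82 (1.17 to 2.97) at the coarser clustering, which put smooth muscle-like cells with the undamaged pericytes and brought them to 32.9 CPM. For smooth muscle-like cells it was 2.59 (0.587 to 23.7), from 13 UMIs in ligated and 2 in undamaged hearts. The ligated pericyte-like cells fell into 3 clusters with 85.5, 53.1 and 38.0 CPM, the lowest being the one whose leading genes include Rgs16, a brake on G protein signalling. Median depth was 1960.5, 6139 and 3569 UMIs in those clusters.

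In the citrine library, where hearts can be told apart, the pericyte-like excess did not pass a test over hearts. Pooled, pericyte-like cells had 510 CPM (468 to 555; 219 cells) and fibroblast-like cells 301 CPM (298 to 305; 10579 cells), a ratio of 1.69 (1.55 to 1.84). In these pericyte-like cells fibroblast markers summed to 23657 CPM and pericyte markers to 17598 CPM. The sums were 6468 and 32065 CPM in undamaged tdTomato+ pericyte-like cells, and 7609 and 27799 CPM in ligated ones. Whether a mixing of the classes had a part in the Hic1 ratio was not tested. By heart, pericyte-like cells had 459, 543 and 293 CPM from 14, 186 and 13 cells, and fibroblast-like cells 326, 288 and 315 CPM. The means were 432 ± 127 and 310 ± 19.6 CPM (SD, n = 3 hearts each), and heart 3 ran the other way. With edgeR's quasi-likelihood test and heart as a block, the log2 ratio was 0.16 (95% interval -0.39 to 0.71, adjusted p = 0.878), and without heart 2, which held most of the pericytes, it was -0.20. With plain library size scaling it was 0.50 (edgeR adjusted p = 0.302). On simulated counts this fit found 1.02% of changes of log2 0.5 and 18.6% of changes of log2 1. Not passing therefore does not show that the 2 classes are alike. The cells themselves held 2.50 Hic1 UMIs each in the pericyte-like class and 2.70 in the fibroblast-like class, at median depths of 3342 and 8120 UMIs. The 40 cycling citrine+ cells had 270 CPM (233 to 312).

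Within fibroblast-like citrine+ cells the subsets differed little, and in 1 subset the difference passed the test under most settings. The cells that met the Wif1 list were a cluster of 596 led by Cytl1, Mmp3 and Prg4 and a cluster of 789 led by Prg4, Ltbp2 and Cilp. Wif1 itself was not among the leading genes of either, while Cytl1, Prg4 and Comp of its list were. These Wif1-like cells had 259, 241 and 272 CPM in hearts 1 to 3, against 348, 295 and 331 CPM in cells of no named subset. All 3 hearts put Wif1-like cells lower and the ranges did not overlap. Against all other fibroblast-like cells the log2 ratio was -0.32 (SE 0.05, adjusted p = 2.0e-04, edgeR), and -0.21 with an adjusted p of 0.090 at the coarser clustering. Sca1-high-like cells had 267, 295 and 276 CPM, a log2 ratio of -0.20 (SE 0.06, adjusted p = 0.0155). That call was lost with DESeq2 (adjusted p = 0.142), with plain library size scaling (0.0538), at the coarser clustering (0.255) and without heart 1 (0.196) or heart 3 (0.106). Interferon-responding cells had 327, 263 and 304 CPM, with a log2 ratio of -0.05 (SE 0.09, adjusted p = 0.980).

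**Figure D2:**
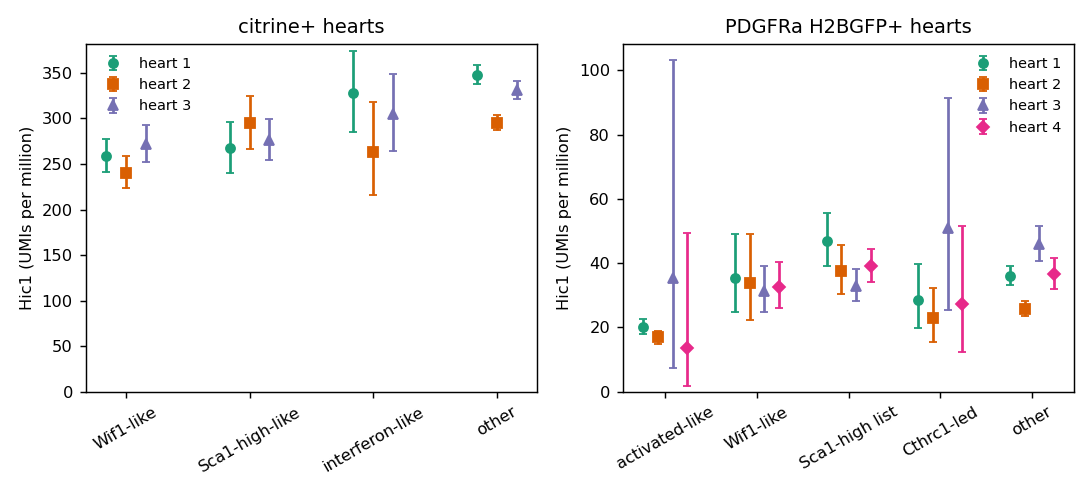
Hic1 level (CPM) by heart in the fibroblast-like subsets of the citrine and PDGFRa libraries, a point per heart with a bar for its exact Poisson 95% interval ("other" marks cells of no named subset, "Sca1-high list" the 3 PDGFRa clusters that met that list, and "Cthrc1-led" the 301 cells led by Cthrc1, Sfrp2 and Ptx3). The 3 citrine hearts of the Wif1-like subset lie at 241 to 272 CPM, below the 295 to 348 CPM of fibroblast-like cells of no named subset.

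PDGFRa+ fibroblast-like cells had 29.9, 22.9, 38.7 and 36.4 CPM in hearts 1 to 4 (31.9 ± 7.11, SD, n = 4). Wif1-like cells had 35.4, 33.8, 31.2 and 32.6 CPM, and cells of no named subset 36.0, 25.8, 45.9 and 36.5 CPM. The ranges of both overlapped. The 3 clusters that met the Sca1-high list had 46.8, 37.5, 33.0 and 39.0 CPM together, but unlike leading genes. That led by Sema3c, Cd55 and Pi16 had 36.7 CPM (271 cells), that led by Vcan, Fbln2 and Cd55 had 38.8 CPM (1068 cells), and that led by C7, Ifi205 and Ogn, with none of the list's genes among its leading 10, had 39.3 CPM (1189 cells) and is given no name. Another 301 cells met the interferon list while leading with Cthrc1, Sfrp2 and Ptx3, so that they are not called interferon-responding, and no cluster met that list at the coarser clustering. They had 28.5, 22.8, 51.0 and 27.2 CPM. Activated-like cells had 20.2, 16.9, 35.3 and 13.7 CPM, but hearts 3 and 4 held only 5 and 8 of them. Pooled, the activated-like level was 19.0 CPM at a median depth of 16662 UMIs, the lowest level of any PDGFRa subset. Ordered over libraries, fibroblast-like cells ran from 301 CPM (citrine) through 32.5 CPM (ligated tdTomato) and 29.9 CPM (PDGFRa) to 20.7 CPM (undamaged tdTomato). The labels name 1 kit version for all libraries, but the barcode sets differ. The opening 6 bases of a barcode took 480 forms in the ligated and 477 in the undamaged tdTomato library, and 960 in each of the others, so the chemistry may not have been the same. Its part in the levels across libraries was not tested. The middle pair did not differ beyond its counting intervals (29.6 to 35.6 and 28.9 to 30.9 CPM), and the PDGFRa hearts alone spanned 22.9 to 38.7 CPM.

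**Figure D3:**
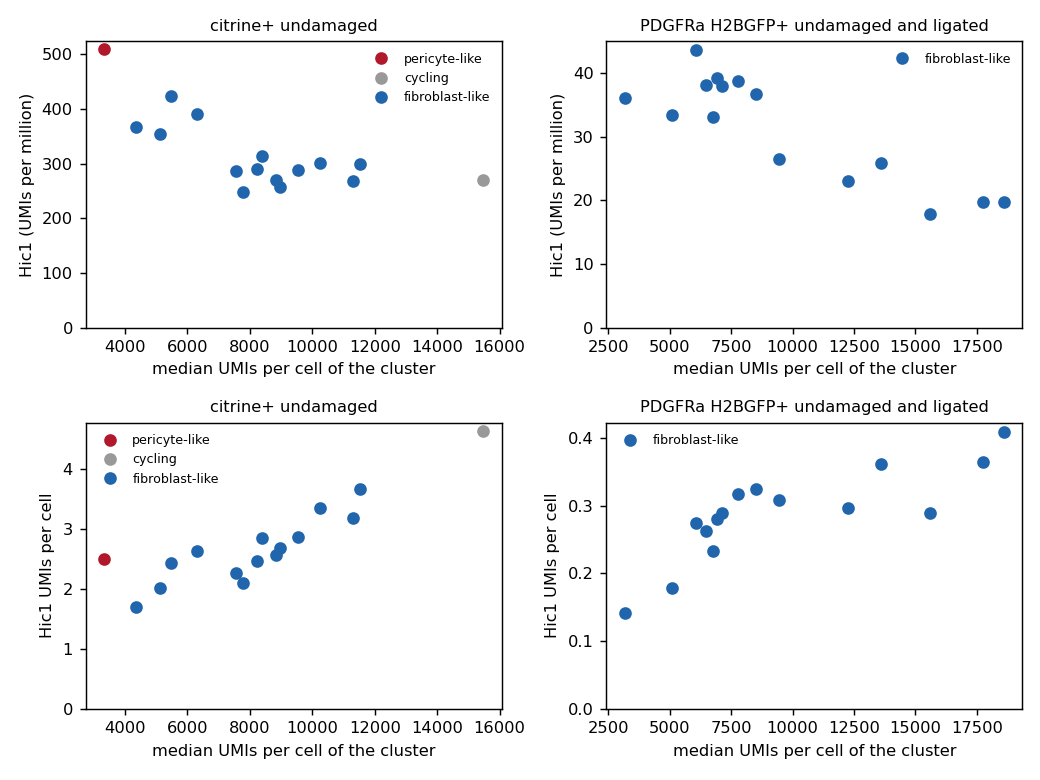
Hic1 level in CPM (top) and in UMIs per cell (bottom) of each cluster of the citrine and PDGFRa libraries against the median UMIs of its cells, a point per cluster, coloured by class. Over fibroblast-like clusters the CPM go down with depth (Spearman rho -0.52 for citrine, -0.73 for PDGFRa) and the UMIs per cell go up (0.91 and 0.88).

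Fibroblast-like clusters of the citrine library ranged from 248 to 424 CPM (1.71-fold) and those of the PDGFRa library from 17.8 to 43.7 CPM (2.45-fold). This order went with depth. Hic1 CPM and median UMIs of a cluster had a Spearman rho of -0.52 over 14 citrine clusters, -0.73 over 15 PDGFRa clusters, -0.85 over 9 ligated and -0.44 over 11 undamaged tdTomato clusters. Hic1 UMIs per cell, in contrast, went up with median UMIs in the citrine (0.91) and PDGFRa (0.88) clusters, with a rho of 0.083 in the ligated and -0.16 in the undamaged tdTomato clusters. The clusters of a library share its cells and sequencing, so these values are descriptions without a p. Across the same 14 citrine clusters, the genes whose CPM ordered the clusters most like Hic1 did, among 3073 with at least 50 CPM, were Cd63, a tetraspanin of late endosomes (rho 0.87), the interferon-induced membrane protein gene Ifitm2 (0.87), the splicing factor gene Srsf2 (0.86), Eri3 (0.83), Cpq, Drap1 and Cyb5a (0.82 each), the nucleoside transporter gene Slc29a1 (0.82), Ube2e3 (0.82) and the ribosomal protein gene Rpl9 (0.81). None of the 10 passed the test at matched depth described next, where adjusted p ran from 0.109 for Cpq to 0.987 for Eri3.

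A deep cell has more UMIs of every gene, so the genes that go with Hic1 were sought among fibroblast-like citrine+ cells with equal totals. Of all kept citrine+ cells, 17.7% held 0 Hic1 UMIs, 21.3% held 1, 18.5% held 2 and 42.6% held 3 or more, with a maximum of 21. From each heart, equal numbers of fibroblast-like cells with 0, 1, 2 and 3 or more Hic1 UMIs were drawn within 20 bins of total UMIs, giving 923 cells per class (275, 391 and 257 in hearts 1 to 3). Median totals were then 6832, 6819, 6820 and 6861 UMIs, and counts were summed by heart and class. With edgeR and heart as a block, 30 of 10157 genes (0.295%) were higher and 41 (0.404%) lower in cells with 3 or more Hic1 UMIs than in cells with 0 (adjusted p under 0.05), 0.699% in either direction. Of these 71, 69 ran the same way in all 3 hearts, which is a count over genes picked by the same test. A second draw of cells gave 35 higher and 50 lower genes, of which 14 and 20 were shared with the first. Matching within clusters as well left 2 higher and 11 lower, 1 and 4 of them shared. The calls for G0s2, C4b and Lars2 were made in each of these 3 ways. Without heart as a block, edgeR called 0 genes, with 633 at an unadjusted p under 0.05, and DESeq2 with the block called 8 higher and 14 lower. DESeq2 called G0s2 (adjusted p = 3.4e-07). It gave no adjusted p to C4b, Lars2 or any other of the lower citrine genes named below, so that none of those was called by it.

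Of the named genes that were higher with Hic1, G0s2, an inhibitor of the lipolytic enzyme ATGL, had the lowest adjusted p. G0s2 had 854, 809 and 732 CPM in cells with 3 or more Hic1 UMIs of hearts 1 to 3, and 596, 684 and 536 CPM in cells with 0. The 3 hearts of each class did not overlap, and the pooled level over the classes 0, 1, 2 and 3 or more was 617, 700, 795 and 801 CPM. The log2 ratio was 0.40 (SE 0.05, adjusted p = 3.12e-07). Smoc2, a secreted SPARC-family matrix protein of resident fibroblasts, had 815, 1136 and 1057 CPM in cells with 3 or more and 591, 930 and 831 CPM in cells with 0. The classes overlap between hearts, but each heart was higher with Hic1, by a log2 ratio of 0.36 in the fit (SE 0.05, adjusted p = 2.26e-06). Oaf, a secreted protein gene, had 472, 495 and 574 CPM against 375, 378 and 476 CPM (0.33, SE 0.05, adjusted p = 2.1e-04). Ndufa4l2, a hypoxia-responsive mitochondrial protein gene counted among pericyte markers, had 184, 197 and 202 CPM with 3 or more Hic1 UMIs and 148, 151 and 149 CPM with 0. These groups did not overlap, and the log2 ratio was 0.38 (SE 0.07, adjusted p = 9.3e-04). Atf5, a bZIP factor of the stress response, had 205, 233 and 246 CPM against 188, 172 and 174 CPM (0.36, adjusted p = 0.0032). Hsd11b1, which regenerates active glucocorticoid, had 308, 449 and 374 CPM against 270, 338 and 323 CPM (0.29, adjusted p = 0.0059). All 6 were higher in 3 of 3 hearts, as the rule for naming a gene required. All 6 were called again in the second draw, as was C1qtnf7, a secreted C1q/TNF-related protein gene. With cells matched within clusters as well, G0s2 kept its call (0.38, adjusted p = 0.0079). The others did not pass there, with Smoc2 at 0.21 (adjusted p = 0.101), Oaf at 0.15 (0.774), Atf5 at 0.15 (0.860), C1qtnf7 at 0.13 (0.857), Hsd11b1 at 0.10 (0.860) and Ndufa4l2 at 0.032 (0.986). The call was also lost for Atf5 without heart 2 or heart 3, for Hsd11b1 without heart 2 and for C1qtnf7 when any 1 of the 3 hearts was left out.

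The other named genes that were higher with Hic1 were called in the first draw but not in the second and had log2 ratios of 0.27 to 0.46 with adjusted p of 0.0155 to 0.0475. They were Pdrg1 (p53 and DNA damage regulated), Abca6 (a lipid transporter of the ABC family), Sh3bp5 (a JNK-binding protein), Myoc (myocilin), Selenbp1, Srpx2, Aspn (a small leucine-rich proteoglycan) and Jup (plakoglobin, of cell junctions). Pdrg1, for example, had 56.8, 55.7 and 70.2 CPM in cells with 3 or more Hic1 UMIs and 44.4, 43.7 and 42.9 CPM in cells with 0. Abca6 had 88.0, 103 and 101 CPM against 64.6, 88.1 and 68.2 CPM. Both stood higher in every heart, as naming required. Vtn, vitronectin, a pericyte marker under the level set for naming, had 12.7 against 5.04 CPM pooled (log2 1.32, adjusted p = 0.045). The summed level of the pericyte list was 308, 308, 341 and 353 CPM over the classes 0, 1, 2 and 3 or more. Ndufa4l2 alone had 150 CPM at 0 and 195 CPM at 3 or more. The median log2 ratio of the 9 members tested was -0.0053, with Kcnj8 at 0.26, Pdgfrb at -0.12 and Rgs5 at -0.83. Whether stray pericyte RNA had a part in these levels was not tested.

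**Figure D4:**
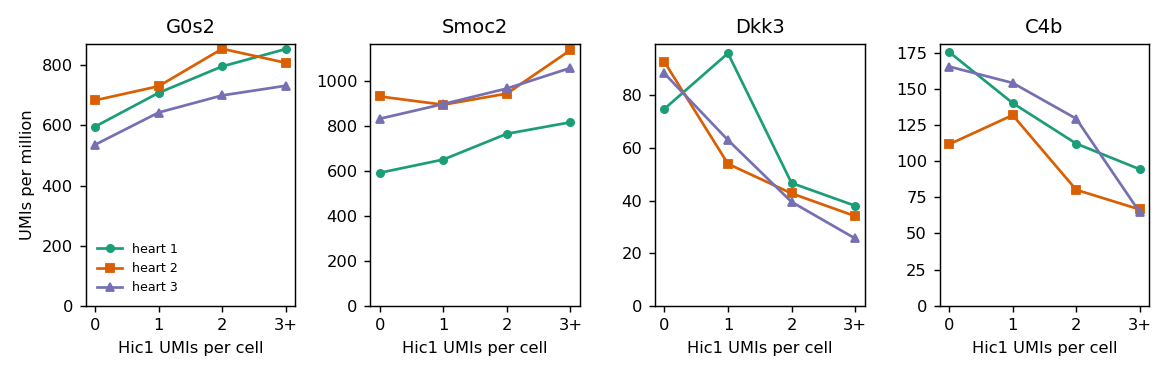
Level (CPM) of G0s2, Smoc2, Dkk3 and C4b in matched fibroblast-like citrine+ cells with 0, 1, 2 and 3 or more Hic1 UMIs, a line per heart. G0s2 and Smoc2 are higher and Dkk3 and C4b lower at 3 or more than at 0 in each of the 3 hearts, as the rule for naming a gene required.

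Among the named genes, the fall with Hic1 was largest for Dkk3, a secreted member of the Dickkopf family that also marks the Wif1-like subset. Dkk3 had 38.0, 34.1 and 25.6 CPM in cells with 3 or more Hic1 UMIs of hearts 1 to 3, against 74.9, 92.8 and 88.4 CPM in cells with 0. The groups did not overlap, and the pooled level over the classes 0, 1, 2 and 3 or more was 86.3, 68.7, 43.0 and 32.9 CPM (log2 ratio -1.39, SE 0.20, adjusted p = 0.019). In heart 1 the level at 1 UMI, 96.1 CPM, was above that at 0. The share of matched cells that were Wif1-like was 15.9%, 15.9%, 11.1% and 12.2% over those classes. With cells matched within clusters the Dkk3 ratio was -0.53 (adjusted p = 0.884) and the call was lost, as it was without heart 3 (-1.25, adjusted p = 0.288). C4b, a complement component, had 94.4, 66.6 and 64.6 CPM in cells with 3 or more and 175, 112 and 165 CPM in cells with 0, again without overlap (-0.97, SE 0.14, adjusted p = 0.0080). Lars2, a mitochondrial tRNA synthetase gene, had 98.3, 102 and 105 CPM against 140, 175 and 118 CPM (-0.53, SE 0.09, adjusted p = 0.0021), while mitochondrial UMIs made up 3.37%, 3.30%, 3.25% and 3.11% of the 4 classes. Dapk1, a death-associated kinase gene, had 46.4, 49.0 and 38.9 CPM against 62.6, 71.3 and 51.2 CPM (-0.47, adjusted p = 0.019), and S100a1, a calcium-binding protein gene, 49.9, 43.7 and 52.3 CPM against 71.5, 59.8 and 64.6 CPM (-0.43, adjusted p = 0.045). These 5 were lower in 3 of 3 hearts, as naming required, and were called in both draws with edgeR. DESeq2 gave none of the 5 an adjusted p. Matched within clusters, C4b (-0.59, adjusted p = 0.0162) and Lars2 (-0.45, adjusted p = 0.0292) passed, and Dapk1 (-0.38, 0.669) and S100a1 (-0.18, 0.890) did not. The call was lost for Lars2 without heart 2, and for Dapk1 and S100a1 when any 1 of the 3 hearts was left out. That of S100a1 was also lost without the epicardial marker cells described below. Slit3 (a ligand of Robo receptors), the guidance ligand gene Sema3c, Gm26917, the protease inhibitor gene Serpina3n and Clec2d were lower in the first draw but not called in the second, by -0.50 to -0.37 (adjusted p 0.0032 to 0.0495).

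Epicardial RNA moved with the Hic1 classes as well. Msln, mesothelin, had 12.8 CPM in cells with 0 Hic1 UMIs and 0 UMIs in cells with 3 or more, and it passed the test (adjusted p = 3.0e-04). The summed level of the 8 epicardial markers was 60.8, 10.3, 0.287 and 0.143 CPM over the classes 0, 1, 2 and 3 or more, and in cells with 0 it was 185 CPM in heart 1, 0 in heart 2 and 24.3 CPM in heart 3. Of the 10838 citrine+ cells, 8 held at least 25 UMIs each over these markers, all 8 were among the matched cells, and 6 held 0 and 2 held 1 Hic1 UMI. Their Hic1 level was 27.4 CPM (3.32 to 98.9), against 303 CPM in all kept citrine+ cells. Without them 16 genes were higher and 27 lower, of which 16 and 26 were among those called with them. Of the named citrine genes, Aspn, Jup, Slit3, Gm26917 and S100a1 lost their calls without these cells. Macrophage markers summed to 42.4 CPM in cells with 0 Hic1 UMIs and to 11.8 to 13.9 CPM in the other classes. In cells with 0 they had 103 CPM in heart 1, 19.2 CPM in heart 2 and 14.5 CPM in heart 3. Smooth muscle markers summed to 173, 163, 134 and 121 CPM over the classes 0, 1, 2 and 3 or more.

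**Figure D5:**
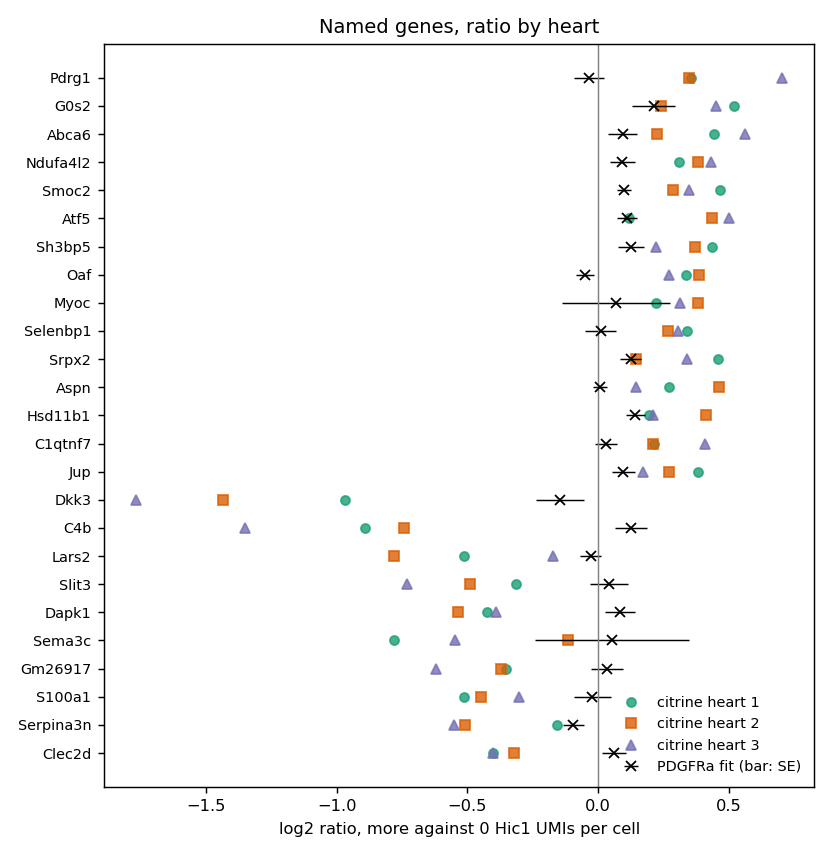
Log2 ratio of the 25 genes named for the citrine library, 3 or more against 0 Hic1 UMIs, with a coloured point per heart, beside the fitted PDGFRa value, 1 or more against 0, as a cross with a bar for its SE. Every citrine point of Dkk3 and C4b lies below 0 and every one of G0s2 and Smoc2 above it. A gene was named only if all its citrine hearts ran the same way.

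In PDGFRa+ cells, which were not sorted on Hic1, cells with 1 or more Hic1 UMIs were set against cells with 0, with 2448 matched cells per class over 4 hearts. Of 11320 genes, 16 (0.141%) were higher and 24 (0.212%) lower, 0.353% in either direction. Fmo2, a flavin monooxygenase gene, had 141, 130, 270 and 459 CPM in cells with Hic1 of hearts 1 to 4, against 120, 110, 225 and 383 CPM in cells without (log2 0.24, SE 0.04, adjusted p = 1.15e-04). Levels differed far more between hearts than between classes, but every heart was higher with Hic1, as naming required. Spry1, an inhibitor of receptor tyrosine kinase signalling, had 198, 200, 378 and 264 CPM against 177, 162, 307 and 229 CPM (0.23, SE 0.04, adjusted p = 3.4e-04). Tmem204 and the kinase gene Snrk were higher by 0.28 and 0.23, the secreted protein gene Crispld2 by 0.14 and the small heat shock protein gene Hspb1 by 0.11. Of 17 dissociation and immediate early genes, 5 rose, namely Jun, Dusp1, Ier2, Fos and Egr1, by 0.10 to 0.15. Jun had 4076, 4179, 5393 and 4913 CPM with Hic1 against 3742, 3593, 4933 and 4384 CPM without (adjusted p = 5.2e-05). Matched within clusters as well, only Fmo2 of the named higher genes passed with edgeR. Ier2 stood at 0.11 (adjusted p = 0.0698), Jun at 0.069 (0.431) and Dusp1 at 0.077 (0.845). Calls were lost without heart 2 for Jun, heart 2 or 4 for Dusp1, and heart 2 or 3 for Ier2 and Crispld2. Tmem204 lost its call without heart 1, 2 or 3, and Snrk and Hspb1 when any 1 of the 4 hearts was left out. DESeq2 did not call Tmem204, Snrk, Crispld2, Hspb1, Dusp1 or Ier2.

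The named genes lower with Hic1 in PDGFRa+ cells were Comp, Ptx3, Mt2, Has2 and Has1. Comp, cartilage oligomeric matrix protein, had 108, 169, 38.2 and 17.3 CPM in cells with Hic1 and 140, 212, 38.3 and 33.8 CPM in cells without (-0.37, SE 0.06, adjusted p = 0.0020). Ptx3, a pentraxin, had 459, 452, 26.8 and 43.8 CPM against 612, 523, 35.8 and 57.2 CPM (-0.34, SE 0.04, adjusted p = 1.86e-06). The metallothionein gene Mt2 had 420, 405, 235 and 291 CPM against 562, 470, 292 and 337 CPM (-0.31, SE 0.04, adjusted p = 2.5e-06). The hyaluronan synthase genes Has2 and Has1 were lower by -0.33 and -0.29 (adjusted p 0.0106 and 0.0154). All of these were lower in 4 of 4 hearts, as naming required. Activated-like cells made up 18.3% of the matched cells with Hic1 and 21.2% of those without. With cells matched within clusters none of the 5 passed, Comp being at -0.13 (adjusted p = 0.960), Ptx3 at -0.49 (0.768), Mt2 at -0.25 (0.753), Has2 at -0.30 (0.654) and Has1 at -0.37 (0.303), while Fmo2 kept its call (0.21, adjusted p = 0.00135). Without heart 2 the calls of Comp, Has2 and Has1 were lost, and that of Has2 also without heart 3 or heart 4. The second draw gave 7 higher and 19 lower genes, sharing 1 and 8 with the first, and of the named genes it called Fmo2, Comp and Mt2 again. Without heart 2 the counts fell to 2 higher and 7 lower.

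Spry1 and Htra3 were higher with Hic1 in both libraries, which share no hearts. They make up 6.67% of the citrine and 12.5% of the PDGFRa genes called higher. In citrine+ cells Spry1 had 329, 399 and 451 CPM in cells with 3 or more Hic1 UMIs against 297, 343 and 347 CPM in cells with 0 (0.25, SE 0.06, adjusted p = 0.0365). Htra3, a secreted serine protease, had 1395, 1424 and 1345 CPM against 1103, 1257 and 1133 CPM (0.25, SE 0.04, adjusted p = 4.4e-04), with no overlap between the groups. In PDGFRa+ cells Htra3 had 467, 424, 919 and 980 CPM with Hic1 against 426, 368, 864 and 927 CPM without (0.12, SE 0.03, adjusted p = 0.0458). That call was lost when any 1 of the 4 hearts was left out (adjusted p 0.0859 to 0.879), in the second draw (0.0524), within clusters (0.535) and with DESeq2 (0.789). Removal of cells with at least 5 epicardial marker UMIs also ended it, as it did the PDGFRa call of Hspb1. The PDGFRa call of Spry1 was lost without heart 2 (0.122), in the second draw (0.0905) and within clusters (0.598), and held with DESeq2 (0.0476). No gene was called lower in both, and none in opposite directions. The 30 genes higher in citrine+ cells had a median log2 ratio of 0.079 in PDGFRa+ cells, with 22 above 0, while the median over all genes tested there was -0.00065. The 37 of the lower genes that were tested there had a median of -0.018, with 23 below 0. G0s2 had a log2 ratio of 0.21 there (adjusted p = 0.746), C4b 0.13 (0.707) and Dkk3 -0.15 (0.832), none of which passed.

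In the tdTomato libraries, whose hearts carry no hashtag, matched fibroblast-like cells with 1 or more Hic1 UMIs were set against cells with 0 as ratios with exact 95% intervals and no test, 420 cells per class after ligation and 177 in undamaged hearts. Spry1 had 191 CPM with and 150 CPM without Hic1 after ligation (1.27, 1.10 to 1.47), and 223 and 172 CPM in undamaged hearts (1.30, 1.02 to 1.66). G0s2 had 930 and 852 CPM after ligation (1.09, 1.03 to 1.16) and 987 and 814 CPM in undamaged hearts (1.21, 1.08 to 1.36). Ndufa4l2 had ratios of 1.23 (1.10 to 1.37) and 1.30 (1.05 to 1.61). The intervals of these 3 genes lay above 1 in both libraries. Htra3 had 1020 CPM with and 831 CPM without Hic1 after ligation (1.23, 1.15 to 1.31), and a ratio of 1.07 (0.943 to 1.22) in undamaged hearts. Dkk3 had 44.0 CPM with and 106 CPM without Hic1 in undamaged hearts (0.415, 0.264 to 0.639), and a ratio of 0.853 (0.684 to 1.06) after ligation. Comp was at 0.667 (0.526 to 0.844) after ligation and at 0.190 (0.099 to 0.340) in undamaged hearts. C4b stood the other way in undamaged hearts, with 48.2 CPM with and 25.8 CPM without Hic1 (1.87, 1.03 to 3.52), from 34 and 18 UMIs. Such ratios were taken for named genes alone, so the counts below have no share over all genes beside them. Their intervals cover counting error only, not the spread between cells or hearts. Of the 15 named citrine-higher genes, 11 were above 1 after ligation, with 5 intervals wholly above 1 and that of Myoc (0.660, 0.521 to 0.833) below, and 10 were above 1 in undamaged hearts, with 2 intervals wholly above. Their median ratios were 1.04 after ligation and 1.13 in undamaged hearts. Of the 10 named citrine-lower genes, 3 were above 1 after ligation (median 0.933, no interval wholly on one side of 1), and 7 were above 1 in undamaged hearts (median 1.09, with the interval of C4b above 1 and that of Dkk3 below). In the 122 matched ligated pericyte-like cells per class, 7 of the 14 citrine-higher genes with a ratio were above 1 (median 1.00), with 2 intervals wholly above and that of Pdrg1 (0.625, 0.412 to 0.938) below, and 6 of 9 citrine-lower genes were above 1 (median 1.22). Among these, G0s2 had a ratio of 1.29 (1.11 to 1.49), and Htra3, from the genes called in both libraries, had 2.24 (1.48 to 3.47).

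The pathway lists are given by their counts, beside shares over all genes of 0.295% higher and 0.404% lower in citrine+ cells and 0.141% higher and 0.212% lower in PDGFRa+ cells. Of the reported HIC1 target genes, 0 of 9 tested passed in citrine+ cells and 0 of 11 in PDGFRa+ cells, with median log2 ratios of -0.072 and 0.051, where the medians over all genes were -0.0011 and -0.00065. Over all genes, 1083 in the citrine and 786 in the PDGFRa comparison had an unadjusted p under 0.05 with edgeR, and DESeq2 called 8 higher and 14 lower, and 3 higher and 6 lower genes. Ccnd1, cyclin D1, had 177 CPM with 3 or more and 127 CPM with 0 Hic1 UMIs in citrine+ cells (log2 0.47, adjusted p = 0.220), Cdkn1a 176 against 214 CPM (-0.28, adjusted p = 0.746), and Ackr3, a scavenging chemokine receptor gene, 527 against 501 CPM (0.075, adjusted p = 0.663). The HIC1 partners and its paralog Hic2 gave 0 calls of 10 and of 11, with Hdac1 at 0.26 and Ctbp1 at 0.26 in citrine+ cells (adjusted p = 0.497 and 0.274). The p53 axis gave 0 of 10 in each library. The mesenchymal transcription factors gave 0 of 19 and 0 of 20, and the chromosome 11 neighbours of Hic1 0 of 5 and 0 of 6. On simulated counts the citrine fit found 26.3% of changes of log2 0.5 and 81% of changes of log2 1. For the PDGFRa fit these were 60.2% and 94.7%. A list with 0 calls therefore does not show that its genes are unrelated to Hic1.

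Resident fibroblast genes had 3 of 14 higher in citrine+ cells (Smoc2, Hsd11b1 and Htra3) and 1 of 14 in PDGFRa+ cells (Htra3), with medians of 0.084 and 0.071, against 0.295% and 0.141% of all genes. Other members of this list, Mgp (-0.40, edgeR adjusted p = 0.252) and C7 (-0.39, 0.0654), were lower in 3 of 3 citrine hearts but were not called. The lists were chosen with earlier results of these data known, so their shares are descriptions. Progenitor genes had 1 of 14 lower in each, Sema3c in citrine+ cells and Mfap5, a microfibril protein gene, in PDGFRa+ cells (-0.13, adjusted p = 0.0079). Injury activation genes had 0 of 12 called in citrine+ cells at a median of -0.27, and 2 of 14 lower in PDGFRa+ cells, Comp and fibronectin (Fn1, -0.16, adjusted p = 0.0162, lower in 3 of 4 hearts), at a median of -0.087. Of the cell cycle and quiescence genes 1 of 13 was lower in citrine+ cells, Gas6, a ligand of TAM receptors (-0.27, adjusted p = 0.0457), and 0 of 19 were called in PDGFRa+ cells. The Wnt list had 1 of 8 lower, Dkk3, and 0 of 11. The immediate early list, with 5 of 17 higher in PDGFRa+ cells, had 0 of 17 in citrine+ cells. Among marker lists, 1 of 10 fibroblast markers (Lum, lumican), 2 of 9 pericyte markers (Ndufa4l2 and Vtn) and 1 of 2 epicardial markers tested (Msln, lower) passed in citrine+ cells, and 0 passed in PDGFRa+ cells. No tested marker of smooth muscle, endothelium, macrophages, cardiomyocytes or Schwann cells passed in either library, and no lymphocyte, neutrophil or erythroid marker reached the level tested.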

How the data were processed

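Droplet libraries of 4 groups of sorted heart cells were analysed from the deposited UMI counts per gene and barcode, which the authors made with Cell Ranger against a changed mm10 genome, per the labels' protocols (version 3.0.2 per the headers of the citrine and PDGFRa matrices). Seurat 2.1 is named in the submitters' processing notes, but the deposited counts are whole numbers and not normalised. Barcodes were kept from 500 genes and 1000 UMIs upward, with 10% mitochondrial UMIs or less. No doublet caller was run. Hashtag counts were scaled to the median of that hashtag in cells led by another hashtag. A cell was given a heart when its top scaled count was at least 3 times the next, and cells failing this stayed in library totals alone. Each library was clustered on 2000 variable genes without Hic1, the reporters and mitochondrial, ribosomal, Xist and Y-linked genes (scanpy 1.11.5, 30 components, 20 neighbours, leidenalg 0.10.2, resolution 1), and clusters were named from markers: at least 3, each in at least 25% of cells. CPM were scaled to all UMIs of the group of cells. Levels of single libraries carry exact Poisson or Clopper-Pearson 95% intervals, and the limit at a count of 0 uses 3 counts; both cover counting error only. Heart sums were tested with edgeR 4.0.16 (R 4.3.3; quasi-likelihood, TMM, filter on low counts, Benjamini-Hochberg over all genes). Heart was a block because both sums of a pair come from the same animal, as the hashtags show. The p-values therefore rest on the spread left between sums of 1 library once each heart's own level is taken out. In the citrine fit by Hic1 class, that spread was taken over the sums of all classes (0, 1, 2 and 3 or more).

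Named genes were the 15 highest and 10 lowest called citrine genes, and the 10 highest and 5 lowest called PDGFRa genes, with at least 50 CPM in an end class and the same direction in all hearts. The lists were HIC1 targets, HIC1 partners, p53 axis, progenitor, resident, injury activation, transcription factor, cell cycle, immediate early, Wnt, neighbour and cell type markers. Members and lists were chosen with earlier results of these data known. Alternatives were DESeq2 1.42.0, library size scaling, no filter, no block, a second draw of cells, no matching, matching within clusters, 5% mitochondrial UMIs, resolution 0.5, a hashtag ratio of 5, other Hic1 classes and each heart left out. The fits were checked on simulated counts. Removal of cells with at least 5 epicardial marker UMIs was chosen after seeing the data.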

Additional observations from a re-analysis of the deposited data

Results flagged for a closer look

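In PDGFRa+ cells, Ptx3 was lower with Hic1 in all 4 hearts, but heart 2, at a log2 ratio of -0.212, stood apart from the others. It was the 1 group of 51 groups of 4 hearts to do so, and chance alone marks about 1 in 20 such groups.

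The citrine library held 350 tdTomato UMIs, although its labels name no tdTomato allele. They lay in 325 of the 10838 cells (3.00%), at most 4 per cell, and in 3.85%, 0.271% and 4.36% of the cells of hearts 1 to 3. The PDGFRa library held 1 such UMI. No cell barcode was shared between those citrine cells and the tdTomato libraries. The barcode sets of these libraries differ, as given above, so this comparison cannot tell where the tdTomato UMIs came from. Their source was not tested. The citrine library also held 217 UMIs of the feature SSM2GFP, in 211 cells, against 4066 in the PDGFRa library, 12 in the ligated and 7 in the undamaged tdTomato library. In the matched citrine cells these numbered 8, 14, 12 and 30 UMIs over the classes 0, 1, 2 and 3 or more Hic1 UMIs.

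Clec2d was lower with Hic1 in every citrine heart (fitted log2 ratio -0.37) and was above 0 in every PDGFRa heart, with a fitted log2 ratio of 0.0606 there. Fmo2 was higher in every PDGFRa heart (0.24) and below 0 in every citrine heart, with a fitted log2 ratio of -0.0991. Neither difference between the libraries was tested. In the library that each gene was named for, all hearts ran the same way by the rule for naming.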

How the results depend on the processing

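Counts of genes that went with Hic1 depended on the setting. For citrine+ cells, against 30 higher and 41 lower, DESeq2 gave 8 and 14, no filter on low counts 67 and 123, no matching 316 and 481, matching within clusters 2 and 11, 5% mitochondrial UMIs 20 and 24, a stricter hashtag call 16 and 28, 1 or more against 0 Hic1 UMIs 16 and 27, all kept cells 16 and 24, and removal of epicardial marker cells 16 and 27. Leaving out a heart gave 12 to 26 higher and 23 to 41 lower; without heart 1 it was 16 and 41 and without heart 3 it was 12 and 23. For PDGFRa+ cells, against 16 and 24, DESeq2 gave 3 and 6, no filter 46 and 42, the second draw 7 and 19, matching within clusters 7 and 15 and the stricter hashtag call 8 and 19, and leaving out a heart gave 2 to 18 higher and 7 to 25 lower. Without the replicate block edgeR called 0 higher and 0 lower genes in both libraries, with 633 citrine and 51 PDGFRa genes at an unadjusted p under 0.05.

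Sca1-high-like Hic1 gave -0.20 with DESeq2, -0.16 with library size scaling, -0.20 without the replicate block (adjusted p = 0.0856), -0.061 at resolution 0.5 and -0.295 to -0.129 with a heart left out. At resolution 0.5 the Wif1-like value was -0.21 and the interferon value turned to 0.0039. The pericyte-like value ranged from -0.199 to 0.438 with a heart left out, and the block ended no other call of Hic1. Levels of Hic1 that moved beyond their counting interval were 32.9 CPM in undamaged pericyte-like cells and a ligated over undamaged ratio of 1.82 there (resolution 0.5), 308 and 306 CPM in all and in fibroblast-like citrine+ cells (5% mitochondrial UMIs), and 304 CPM in citrine hearts 2 and 3 (303.8 and 304.2, stricter hashtag call). Within wide intervals, resolution 0.5 gave 12.7 CPM in undamaged Wif1-like cells and 12.9 CPM in undamaged Sca1-high-like cells, with a ratio of 2.63 for the second, and 5% mitochondrial UMIs gave 23.7 CPM in ligated interferon-responding cells, with a ratio of 1.01.

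Signs turned without matching for Ndufa4l2 (-0.066), Selenbp1 (-0.042), Sema3c (0.38) and, in PDGFRa+ cells, Crispld2 (-0.0028). Sema3c turned to 0.15 with the stricter hashtag call and to 0.021 with all kept cells, and Myoc to -0.0044 for 1 or more against 0. Ligated tdTomato+ ratios crossed 1 without matching for Smoc2 (0.948), Fmo2 (0.876, and 0.961 in a second draw), Crispld2 (0.935), Ier2 (0.932) and Comp (1.15). The causes were not tested. Hic1 UMIs averaged 0.147 in ligated and 0.0757 in undamaged tdTomato+ cells, so that a cell with 0 UMIs is not shown to lack the RNA.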
